A study of Mus musculus with 12 samples.

Results

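tRNA-derived small RNAs (tsRNAs) of wild-type mouse liver were compared between chronic and acute injury by carbon tetrachloride (CCl4), a solvent that hepatocytes convert to a toxic product. All mice were male B6D2F1/Crl animals, of 8 to 12 weeks by the sample labels and 9 to 12 weeks by the treatment protocol, and wild type for NSun2. D3 livers were taken on day 3 after a single intraperitoneal dose of 2 mL per kg of a 40% CCl4 solution in corn oil, and D27 livers on day 27 after repeated injections. D0 livers received corn oil alone and serve here as the uninjured background. Each group holds 2 libraries, which the study's methods describe as independent biological replicates, so that 4 of the 12 libraries of the series enter the comparison of D27 with D3. D27 differs from D3 both in the number of injections and in time, which cannot be told apart, and no vehicle group of day 27 was analysed here. The interval since the last injection is not given in the sources used here. The table holds only reads that match tRNAs, so the liver origin cannot be checked against protein-coding markers, and fewer cells of a type cannot be told apart from less RNA per cell.

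All read sequences (fragments) with at least 1 read in the 4 libraries were taken, each counted once, which gave 36175 of the 87699 fragments of the series. Of these, 10419 were read at both days, 12313 at D3 only and 13443 at D27 only. The shared fragments carried 94.7% of the D3 reads and 96.0% of the D27 reads. The most abundant fragment seen at D3 only had a mean of 73.3 reads per 1000000 tRNA reads of the library (CPM), and the most abundant one seen at D27 only had 48.3 CPM. The 4 libraries held 81515 to 275568 reads, so that the 3 reads which a count of 0 allows correspond to 10.9 to 36.8 CPM. D3 replicate 1 stood apart from the other WT libraries. It had the fewest reads (81515), 35.6% of its reads were long 5′ fragments of the type tRF-5c against 61.5% to 71.5% in the other 5 WT libraries, and 61.8% of its reads matched a single isodecoder against 35.1% to 52.2%. The changes of the main sums and fragments are therefore given without it as well.

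tsRNAs are cut from tRNAs at few places. tRF-5 fragments and the longer tiRNA-5 fragments begin at the 5′ end of the mature tRNA and stop before or in the anticodon loop, which RNases such as angiogenin cut under stress. tRF-3 fragments end with the CCA that is added to every mature tRNA, and tRF-1 fragments are the trailers that are cut off precursor tRNAs and end in the run of T at which RNA polymerase III stops. Methyl groups that NSun2 and DNMT2 place on cytosines protect tRNAs from such cuts.

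The tRNAs behind the main results are shown first, 5′ to 3′, with the anticodon in capitals. Glycine tRNA-Gly-GCC-2-1 lies at chr1:171044985-171045055 (GRCm38). The precursor of threonine tRNA-Thr-CGT-1-1 contains the gene at chr16:13437323-13437394, and its trailer begins at base 113 of the 152 bases of the entry. The file headers name no build, and 204 of 278 nuclear mature entries lay exactly on a tRNA gene of RefSeq's GRCm38 annotation.
tRNA-Gly-GCC-2-1: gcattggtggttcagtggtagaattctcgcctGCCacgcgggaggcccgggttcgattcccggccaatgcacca
pre_tRNA-Thr-CGT-1-1: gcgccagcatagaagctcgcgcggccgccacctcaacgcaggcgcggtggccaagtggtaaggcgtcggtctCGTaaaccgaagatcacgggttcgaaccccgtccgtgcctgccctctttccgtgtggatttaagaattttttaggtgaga

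The 5′ fragments of glycine tRNAs form ladders that differ only in where they stop, and their lengths are compared below. They are printed with the bases after position 28 in capitals. The anticodon occupies bases 33 to 35 of the entry above, and the fragments printed here stop before it.
Gly-CCC/Gly-GCC 28 nt: gcattggtggttcagtggtagaattctc
Gly-CCC/Gly-GCC 29 nt: gcattggtggttcagtggtagaattctcG
Gly-CCC/Gly-GCC 30 nt: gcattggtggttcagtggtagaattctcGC
Gly-CCC/Gly-GCC 31 nt: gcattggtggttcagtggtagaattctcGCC
Gly-CCC/Gly-GCC 32 nt: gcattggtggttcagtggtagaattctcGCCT
Gly-GCC 28 nt: gcatgggtggttcagtggtagaattctc
Gly-GCC 29 nt: gcatgggtggttcagtggtagaattctcG
Gly-GCC 30 nt: gcatgggtggttcagtggtagaattctcGC
Gly-GCC 31 nt: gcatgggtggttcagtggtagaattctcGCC

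The long 5′ fragments of a valine and a histidine tRNA and the lysine ladder carry the other 5′ results, with the same capitals.
Val-CAC 32 nt: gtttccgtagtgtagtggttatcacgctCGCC
His-GTG 31 nt: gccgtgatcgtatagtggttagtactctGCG
Lys-CTT 30 nt: gcccggctagctcagtcggtagagcatgAG
Lys-CTT 31 nt: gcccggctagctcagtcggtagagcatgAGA
Lys-CTT 32 nt: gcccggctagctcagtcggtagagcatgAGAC

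The trailers (tRF-1) of Thr-CGT form a ladder on the other side of the comparison, lower at D27. Their closing run of T is in capitals, and the rungs differ only in how many T they hold.
Thr-CGT tRF-1 29 nt: gccctctttccgtgtggatttaagaaTTT
Thr-CGT tRF-1 30 nt: gccctctttccgtgtggatttaagaaTTTT
Thr-CGT tRF-1 31 nt: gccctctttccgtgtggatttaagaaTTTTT
Thr-CGT tRF-1 32 nt: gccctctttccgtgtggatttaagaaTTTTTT

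By share of reads, D27 livers held more tRF-5c and less of nearly every short fragment type than D3 livers, but few of these shares were separated between the libraries. tRF-5c made up 35.6% and 61.5% of the reads at D3 and 60.9% and 69.6% at D27, against 71.5% and 64.3% at D0. The lower D27 library lay just below the higher D3 library, so the groups overlapped, and the mean difference of 16.7 percentage points fell to 3.71 points without D3 replicate 1. Among reads of a single isodecoder, which leaves out the dominant Gly-CCC/Gly-GCC fragments, tRF-5c held 10.6% and 25.9% at D3 and 35.2% and 39.0% at D27, and the libraries did not overlap. tRF-3a held 5.48% and 2.26% at D3 and 2.12% and 1.05% at D27, lower in both D27 libraries. tRF-5a, the shortest 5′ type, was likewise lower in both, with 0.963% and 0.376% at D3 against 0.358% and 0.209% at D27. tRF-1 held 7.69% and 2.56% at D3 and 2.69% and 1.12% at D27, and these overlapped. tiRNA-5 fragments held 1.91% and 2.58% at D3 and 1.98% and 2.61% at D27, which overlapped. Beside counting error, which is at most ±0.343 percentage points for these shares (Wilson 95% interval), the spread between libraries of a group was large, and with 2 libraries against 2 an exact permutation test cannot give a 2-sided p under 0.333.

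**Figure D1:**
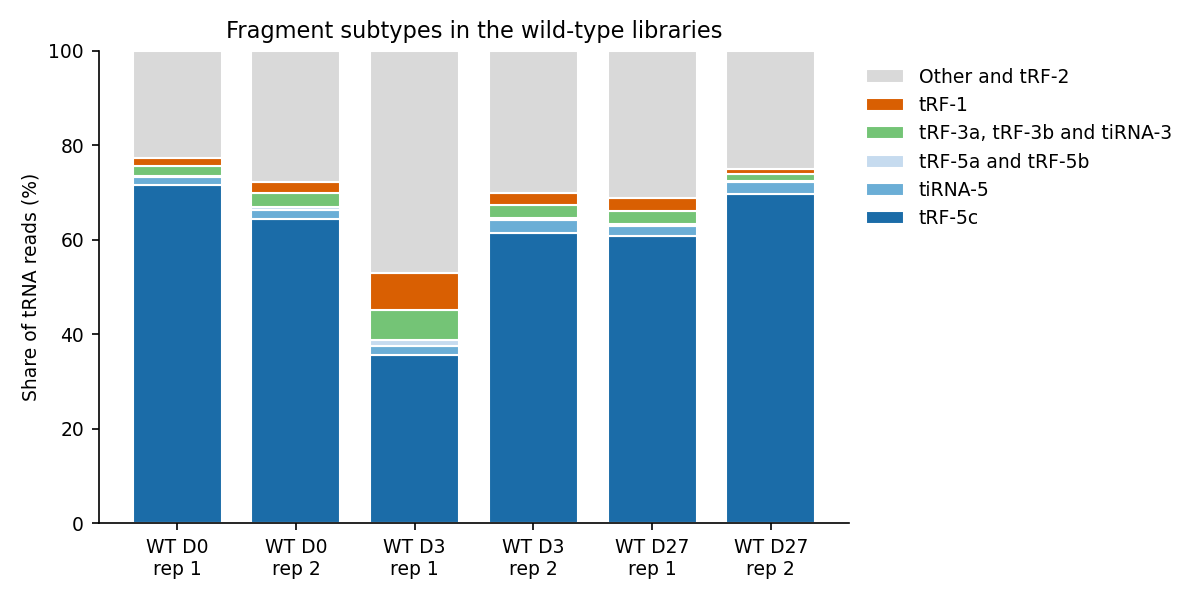
Share of tRNA reads (percent, stacked bars from 0 to 100) held by each fragment type in the 6 WT libraries, 2 each at D0, D3 and D27. The tRF-5c share runs from 35.6% in D3 replicate 1 to 71.5% in D0 replicate 1, and both D27 libraries (60.9% and 69.6%) lie near or above D3 replicate 2 (61.5%).

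Position on the tRNA gave the same picture without the type labels. Reads that began at the 5′ end made up 51.8% and 77.9% at D3 and 73.4% and 85.9% at D27, which overlapped. Reads that ended at the 3′ end made up 11.4% and 5.13% at D3. At D27 they made up 5.19% and 3.09%, and when only reads outside tRF-5c were taken they made up 17.7% and 13.33% at D3 and 13.25% and 10.2% at D27, which did not overlap by a narrow margin. Internal reads that began in or after the anticodon loop were lower in both D27 libraries, with 4.63% and 2.27% at D3 and 2.07% and 1.33% at D27. They were also lower among reads outside tRF-5c, with 7.19% and 5.90% against 5.30% and 4.36%.

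Read length separated the days at 30 nt. Reads of 30 nt made up 5.74% and 10.2% at D3 and 21.6% and 14.6% at D27, against 7.43% and 7.76% at D0. Those of 29 nt made up 1.16% and 1.57% at D3 and 2.94% and 2.12% at D27, and those of 28 nt 0.773% and 2.41% against 3.05% and 2.45%. Lengths of 28, 29 and 30 nt were thus higher in both D27 libraries, and the 28-nt gap between the nearest libraries was small. At 31 nt, the commonest length, the shares of 24.7% and 35.96% at D3 overlapped those of 30.2% and 38.5% at D27, below 56.7% and 48.6% at D0. Reads of 14, 17, 18, 19, 22, 36, 37 and 39 nt were lower in both D27 libraries.

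The number of different fragments depended on the level at which they were counted. Fragments with at least 1 read numbered 12468 and 15896 at D3 and 14357 and 16015 at D27. Those with at least 20 CPM numbered 4283 and 2776 at D3 and 2472 and 2070 at D27, a ratio of means of 0.643, against 1844 and 2127 at D0. At 20 CPM a fragment had 2 reads in D3 replicate 1 and 4 to 6 in the other WT libraries. After all libraries were thinned to 81515 reads the means over 20 copies were 4283 and 3034 at D3 and 3200 and 2493 at D27, which overlapped, with a ratio of 0.778. At 50 CPM the numbers of 1618 and 1219 at D3 and 1272 and 997 at D27 overlapped, as did those at 100 CPM, with 918 and 631 against 641 and 564.

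Fragments were then summed by type and isodecoder, and changes from D3 to D27 were fitted by limma after scaling log2 CPM with TMM, a factor that evens out most sums between libraries. No sum passed an adjusted p of 0.05 (0 of 281, 0%), with the smallest adjusted p at 0.252 by limma. At an unadjusted p under 0.05, 29 sums were higher and 15 lower, and limma with voom weights also called 0, with 27 and 18 at the unadjusted threshold. In data simulated with 4-fold changes in 56 of the 281 sums, 89.3% of them were recovered by this fit. That share holds only for the spread between libraries that was simulated. In the real data the tRF-5c sums of Val-CAC, Gly-GCC and Ala-CGC/Glu-CTC had fitted log2 changes of 2.26, 2.07 and 2.83. Their standard errors were 0.51, 0.64 and 0.84, and none of them passed (limma adjusted p = 0.252). The simulated share is therefore not the chance of finding such changes in these libraries. For single fragments, limma called 0 of 22065 (0%), with 576 higher and 353 lower at an unadjusted p under 0.05, and voom weights called 53 higher and 18 lower. In scaled CPM 8.05% of these fragments were higher in both D27 libraries and 6% lower, and in CPM 5.16% were higher and 8.38% lower. Of the 22065 tested fragments, 12555 had a read in the 4 libraries and 9510 entered through the other libraries alone. The simulated recovery for single fragments was 7%, and 65 of the 79 simulated calls were false. The values below are therefore given as levels in each library, with the fitted change, and none of them passed the test.

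Scaling set the sign of many small changes. The median log2 change over all 281 sums was 0.12 with TMM, −0.72 with library size only and −0.23 when reads outside tRF-5c served as the library size. In CPM, 20 of the 281 sums (7.12%) were higher in both D27 libraries than in both D3 libraries and 90 (32%) were lower. In scaled CPM these numbers were 84 (29.9%) and 54 (19.2%). Counts below are read against these shares.

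**Figure D2:**
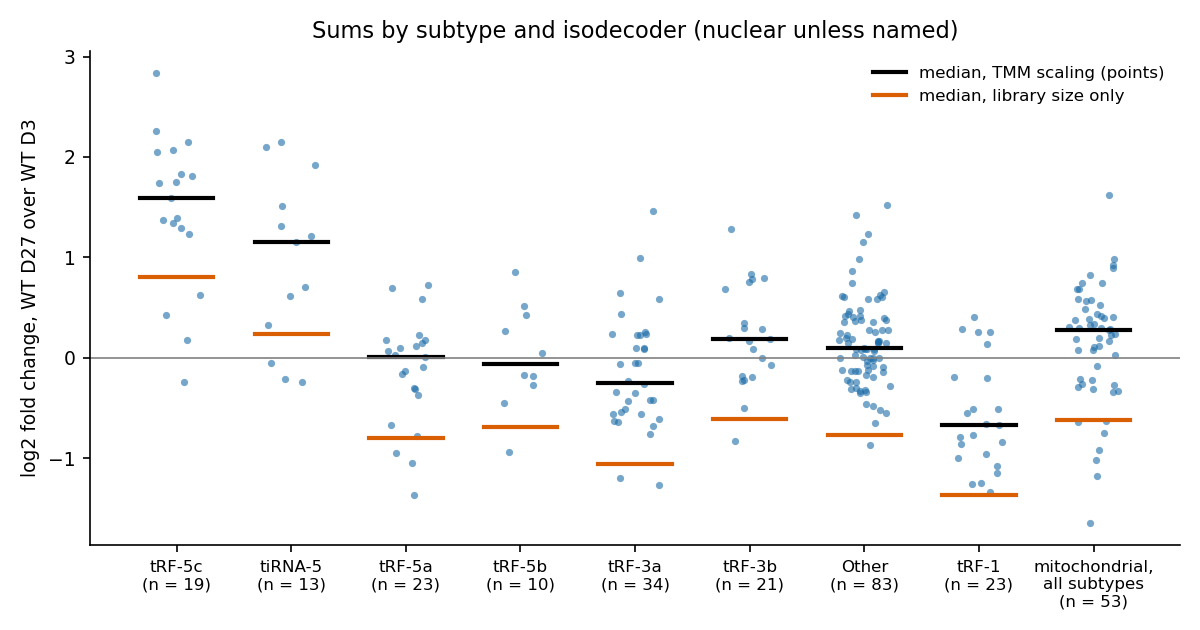
Fitted log2 change from D3 to D27 of each sum, by fragment class (points, TMM scaling), with the median of the class under TMM (black) and under library size only (orange). Nuclear tRF-5c sums lie highest, with medians of 1.59 and 0.80, and nuclear tRF-1 sums lowest, with medians of −0.67 and −1.37.

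Long 5′ fragments of nuclear tRNAs were the class that stood highest at D27. Of 19 nuclear tRF-5c sums, 15 were higher in both D27 libraries in scaled CPM and 0 lower. In CPM 12 were higher in both and 3 lower. The median log2 change was 1.59 with TMM and 0.80 with library size only, and it was 0.80 without D3 replicate 1. Without that library 15 of the 19 were still higher than the remaining D3 library in both D27 libraries and 1 was lower, against 111 and 79 of all 281 sums.

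Gly-GCC is a main source of 5′ fragments in many tissues and a substrate of both DNMT2 and NSun2. Its tRF-5c sum was 20328 and 35071 CPM at D3 and 55121 and 61894 CPM at D27, against 26134 and 24374 CPM at D0. Both D27 libraries stood above all other WT libraries. The log2 change was 2.07 ± 0.64 (SE; limma adjusted p = 0.252) with TMM, 1.13 with library size only and 1.10 without D3 replicate 1. The far more abundant fragments shared by Gly-CCC and Gly-GCC behaved less clearly. Their tRF-5c sum was 270981 and 472409 CPM at D3 and 383744 and 496415 CPM at D27, against 582137 and 507979 CPM at D0, and D3 and D27 overlapped. Its log2 change of 1.23 ± 0.75 (limma adjusted p = 0.454) fell to 0.25 without D3 replicate 1.

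Glutamate tRNAs are the other large source of 5′ fragments. The tRF-5c sum of Glu-CTC was 29418 and 62283 CPM at D3 and 99756 and 85456 CPM at D27, against 67933 and 65498 CPM at D0. Both D27 libraries were above both D3 libraries, with a log2 change of 2.05 with TMM, 1.11 with library size only and 0.93 without D3 replicate 1. Glu-TTC held fewer reads, with a log2 change of 1.38 with TMM and 0.44 with library size only, and its libraries were separated only after scaling. Its tRF-5c sum was 5778 and 5140 CPM at D3 and 10856 and 5011 CPM at D27, which overlapped, against 1697 and 3338 CPM at D0. A sum listed under both Ala-CGC and Glu-CTC had the largest fitted change of the named sums, 2.83 ± 0.84 with TMM and 1.35 without D3 replicate 1. It stood at 1460 and 5207 CPM at D3 and 13493 and 7911 CPM at D27.

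Valine and histidine tRNAs gave smaller sums. The tRF-5c sum of Val-CAC was 540 and 719 CPM at D3 and 1737 and 1459 CPM at D27, against 454 and 502 CPM at D0. This was the sum with the smallest p of all, with a log2 change of 2.26 ± 0.51 (limma unadjusted p = 0.00144, adjusted p = 0.252), 1.33 with library size only and 1.497 without D3 replicate 1. That of Val-AAC, another DNMT2 substrate, was 908 and 1096 CPM at D3 and 1897 and 1800 CPM at D27. D3 lay at the level of D0 (912 and 1047 CPM), and the log2 change was 1.81 ± 0.49, or 1.11 without D3 replicate 1. For His-GTG the sum was 994 and 1675 CPM at D3 and 2752 and 2134 CPM at D27, against 1314 and 1115 CPM at D0, a log2 change of 1.83 ± 0.54 with TMM and 0.89 without D3 replicate 1.

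tiRNA-5 fragments reach into the anticodon loop. Of 13 nuclear tiRNA-5 sums 3 were higher in both D27 libraries in scaled CPM and 0 lower. In CPM 3 were higher and 3 lower. The median log2 change was 1.15 with TMM and 0.24 with library size only, and 10 of the 13 fitted changes were above 0. Without D3 replicate 1 all of these changes were lower. Val-CAC turned to −0.27, Val-AAC/Val-CAC to −0.15 and Val-AAC to −0.57. Those of Asp-GTC, Glu-CTC, Glu-TTC, Glu-CTC/Glu-TTC, Gly-CCC, His-GTG and Lys-TTT stayed above 0. The lean of the class above 0 thus rested in part on that library. The tiRNA-5 fragments of Glu-TTC, the most abundant of this type, were 3006 and 7483 CPM at D3 and 10051 and 8691 CPM at D27. Their log2 change was 1.91 ± 0.81 (limma adjusted p = 0.301), and 0.69 without D3 replicate 1. Those of Asp-GTC, the classical DNMT2 substrate, were rare, with 1 and 6 reads at D3 and 16 and 20 reads at D27. This is 12.3 and 31.03 CPM against 102 and 72.6 CPM, higher in both D27 libraries. Those of Lys-CTT were lower in CPM, with 3435 and 3103 CPM at D3 and 945 and 2185 CPM at D27, while their scaled values overlapped.

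Short 5′ fragments did not share the difference of the long ones. Of 23 nuclear tRF-5a sums 3 were higher and 5 lower in both D27 libraries in scaled CPM, and in CPM 0 were higher and 8 lower. Of 10 nuclear tRF-5b sums 0 were higher and 2 lower in scaled CPM. The main tRF-5a sum, of Glu-CTC and Glu-TTC, was 1533 and 409 CPM at D3 and 568 and 301 CPM at D27, and the main tRF-5b sum, of Val-AAC and Val-CAC, was 834 and 688 CPM at D3 and 581 and 392 CPM at D27. Both changed sign with the scaling, from 0.005 with TMM to −0.92 with library size only and from 0.27 to −0.65.

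**Figure D3:**
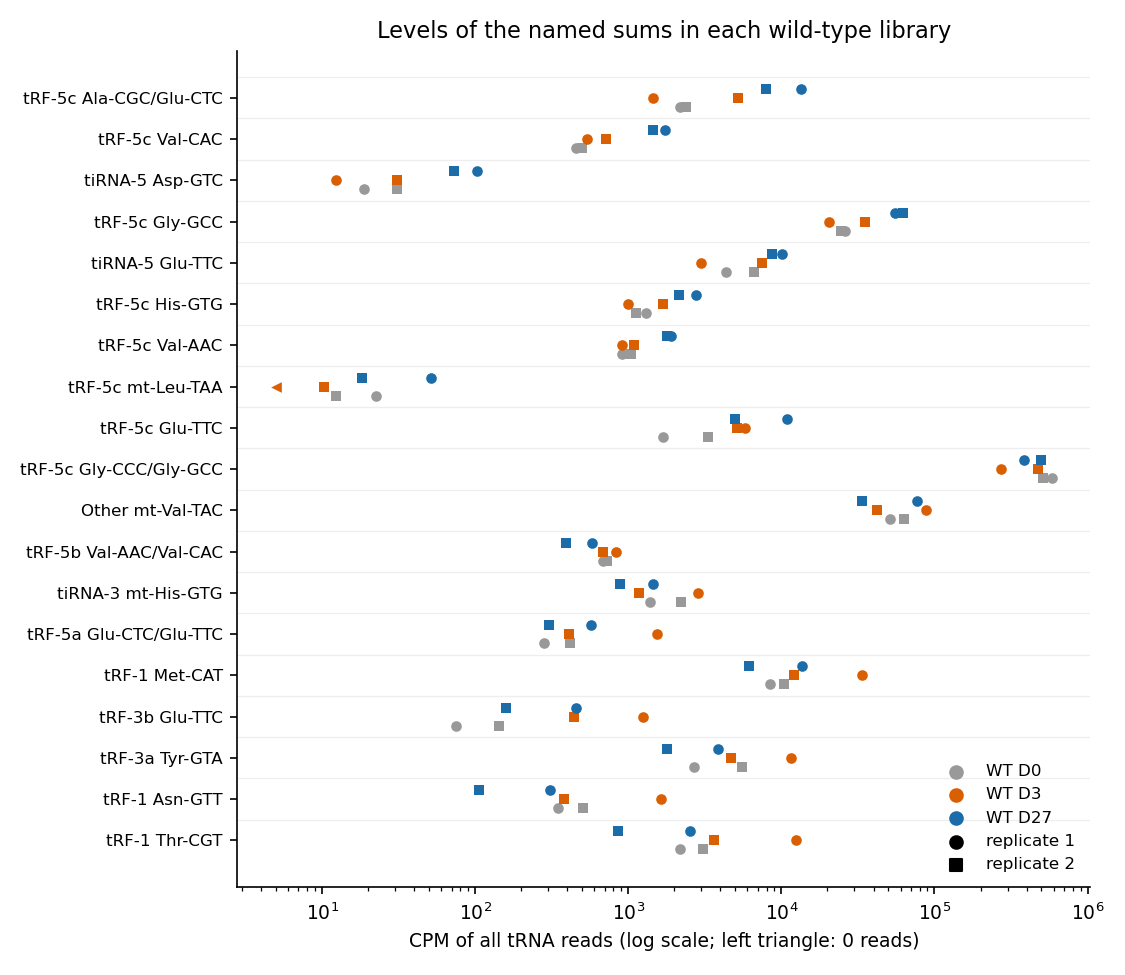
Level of the named sums in each of the 6 WT libraries (CPM, log axis; a left triangle marks a library with 0 reads). The tRF-5c sums of Gly-GCC, Val-CAC, Val-AAC and His-GTG lie higher in both D27 libraries than in both D3 libraries, and the tRF-1 sums of Thr-CGT and Asn-GTT lie lower.

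The length of the long 5′ fragments was compared within each isodecoder. This measure divides by the reads of the same isodecoder class, so it does not depend on the scaling between libraries. A class is set by the read sequence, so reads of 1 tRNA can fall in different classes by length. Tabulated lengths ran from 27 to 32 nt for Gly-CCC/Gly-GCC and up to 36 nt for Gly-GCC. In Gly-GCC, 33 nt made up 16.3% and 8.43% at D3 and 2.86% and 4.24% at D27. How far such mixing moves the Gly-GCC lengths was not tested. Fragments of 26 nt or more that began at the 5′ end were taken for the 15 isodecoders with at least 100 such reads in each of the 4 libraries. Mean length was lower in both D27 libraries for 6 of the 15 (40%) and higher for 0 (0%), and the other 9 overlapped. For Gly-GCC it was 31.73 and 31.77 nt at D3 and 30.41 and 31.09 nt at D27. For Lys-CTT it was 33.91 and 33.73 nt at D3 and 32.44 and 33.20 nt at D27. For Val-CAC it was 33.59 and 33.63 nt at D3 and 32.32 and 33.01 nt at D27. In all of these the D3 libraries lay closer together than the D27 libraries, and D27 replicate 1 was the shorter. Gly-CCC/Gly-GCC was at 30.97 and 30.89 nt at D3 and 30.43 and 30.83 nt at D27, and mt-Ser-GCT and Ala-CGC/Glu-CTC differed by smaller amounts. Glu-CTC overlapped, with 31.79 and 32.04 nt at D3 and 30.95 and 32.06 nt at D27.

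In the glycine ladders shown above, the 30-nt fragment held a larger share at D27. Among the long 5′ fragments of Gly-CCC/Gly-GCC, 30 nt made up 14.5% and 15.3% at D3 and 36.2% and 20.4% at D27, against 10.6% and 12.1% at D0. The 31-nt fragment, by contrast, made up 69.5% and 59.3% at D3 and 51.2% and 56.4% at D27, against 82.5% and 79.0% at D0. For Gly-GCC the 31-nt fragment overlapped, with 49.6% and 40.5% at D3 and 43.5% and 48.4% at D27. Among its long 5′ fragments, 30 nt made up 13.0% and 12.4% at D3 but 34.2% and 21.1% at D27. All these D3 and D27 shares of 30 nt rest on at least 312 reads of that length, and the D3 libraries differed by less than 1 percentage point. The difference between the means was 13.4 percentage points for Gly-CCC/Gly-GCC and 14.9 points for Gly-GCC, and 5.48 and 8.41 points without D27 replicate 1.

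Glu-CTC and Lys-CTT shared the direction with wider spread. In Glu-CTC 30 nt made up 5.75% and 9.95% of the long 5′ fragments at D3 and 24.6% and 10.3% at D27. D27 replicate 2 was thus close to D3 replicate 2, and the difference of 9.59 percentage points fell to 2.40 points without D27 replicate 1. In Lys-CTT the ladder differed at 31 and 34 nt. The 31-nt fragment held 6.75% and 7.75% at D3 and 25.2% and 9.10% at D27, and the 34-nt fragment 25.5% and 26.6% against 10.5% and 21.2%. Of the 13 isodecoders for which 30 nt was tabulated, the 30-nt share was higher in both D27 libraries for 6 (46.2%) and lower for 1 (7.69%). Over all isodecoders together 30 nt held 10.8% and 13.2% at D3 and 30.1% and 17.1% at D27, against 8.99% and 10.005% at D0.

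**Figure D4:**
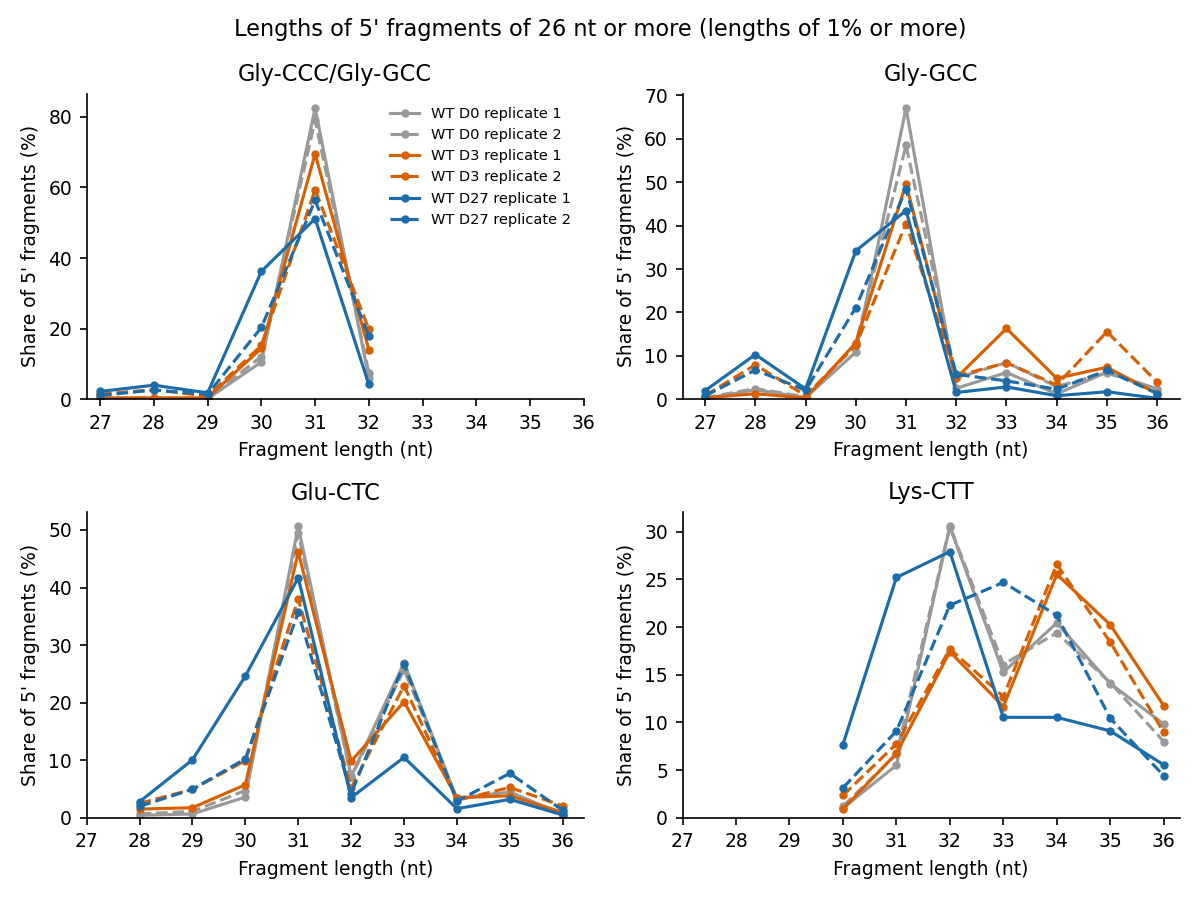
Length of 5′ fragments of 26 nt or more (nt) against their share of such fragments of the same isodecoder (percent), in 4 panels for Gly-CCC/Gly-GCC, Gly-GCC, Glu-CTC and Lys-CTT. Solid lines are replicate 1 and dashed lines replicate 2 at D0, D3 and D27. At 30 nt both D27 libraries lie above both D3 libraries in each panel, most in D27 replicate 1.

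The ladder was seen in the levels of single fragments too. The 30-nt fragment of Gly-GCC was 1509 and 2513 CPM at D3 and 8921 and 6423 CPM at D27, a log2 change of 2.62 ± 0.66, or 1.66 without D3 replicate 1. Its 31-nt fragment was 5226 and 7519 CPM at D3 and 9917 and 12291 CPM at D27, a change of 1.48 ± 0.53, or 0.62 without that library. The 30-nt fragment of Gly-CCC/Gly-GCC was 15911 and 30955 CPM at D3 and 61845 and 41464 CPM at D27. Its log2 change was 1.86 ± 0.61, or 0.78 without D3 replicate 1. For the 28-nt fragment of the same ladder the change of 2.62 fell to 0.21 without that library. The 31-nt fragment of Gly-CCC/Gly-GCC was 67914 and 102913 CPM at D3 and 75989 and 98288 CPM at D27, which overlapped. The 30-nt rungs of both glycine ladders did not overlap between the days, while the 31-nt rung of Gly-CCC/Gly-GCC did.

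The last base of these fragments was alike at both days to within a few percentage points. The most abundant 31-nt sequence of Gly-CCC/Gly-GCC carries a mismatch to the tRNA in its last base. Of 31-nt fragments that share the 30 bases before it, 38.5% and 38.7% at D3 and 40.9% and 37.2% at D27 ended in the matching C, and 43.2% and 43.4% against 41.2% and 43.0% ended in T. Of all tRF-5c reads, 58.9% and 55.8% at D3 and 54.3% and 56.7% at D27 had a mismatch. Most of those mismatches were in the last base, 80.4% to 84.7% in the 4 libraries.

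Of the 706 fragments with a mean of 100 CPM or more, 175 (24.8%) were higher in both D27 libraries in scaled CPM and 134 (19%) were lower. Of the 5 with the largest positive change among those without overlap, 3 were long pieces of Gly-GCC from the 5′ end. The 29-nt fragment of Gly-GCC was 49.1 and 253 CPM at D3 and 849 and 867 CPM at D27, and the 28-nt one 61.3 and 667 CPM at D3 and 1877 and 1118 CPM at D27. A 29-nt fragment that matches tRNA-Gly-GCC-6-1 (chr7:26460817-26460888) was 12.3 and 98.3 CPM at D3 and 332 and 374 CPM at D27. It differs from the other 29-nt fragment only in its last base. It therefore cannot be told apart from a copy of that fragment with a mismatch at its end. The fitted log2 changes of these 3 fragments were 3.20 to 3.32 (limma adjusted p from 0.621 to 0.788). D3 replicate 1 held 4, 5 and 1 reads of them, the last below the 3 reads that a count of 0 allows, and without it the changes were 1.79, 1.18 and 1.80.
Gly-GCC-6-1 29 nt: gcatgggtggttcagtggtagaattctcA

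Trailers stood on the other side. Of 26 tRF-1 sums 12 were lower in both D27 libraries in scaled CPM and 3 higher, and in CPM 11 were lower and 0 higher. Their median log2 change was −0.60 with TMM and −1.34 with library size only. It was −0.41 without D3 replicate 1, where 12 were lower and 4 higher, and −0.20 without D27 replicate 2, where 12 were lower and 8 higher. The 9 isodecoders whose tRF-1 the study singled out on these libraries (those of Met-CAT, Phe-GAA, Ile-AAT and Val-CAC, of Arg-CCT and Cys-GCA, and of His-GTG, Ser-AGA and Gly-TCC) had a median of −0.77, with 4 of 9 lower and 1 higher in scaled CPM. As they were chosen on libraries of this series, their direction is not independent evidence. The tRF-1 of Gln-CTG had 5 and 2 reads at D3 and 1 and 0 reads at D27, at or near what a count of 0 allows.

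The trailer of Thr-CGT was the most abundant of those with a small p. Its tRF-1 sum was 12439 and 3625 CPM at D3 and 2522 and 856 CPM at D27, against 2185 and 3084 CPM at D0. It was lower in both D27 libraries, with a log2 change of −1.24 ± 0.38 (limma adjusted p = 0.252), −0.93 without D3 replicate 1 and −2.18 with library size only (limma adjusted p = 0.00863). The trailer of Asn-GTT was 1632 and 383 CPM at D3 and 307 and 105 CPM at D27, with a log2 change of −1.15 ± 0.37, and −0.69 without D3 replicate 1. The lower D27 library was below both D0 libraries for each of these trailers.

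The rungs of the Thr-CGT trailer differed too. Trailers of 32 or 33 nt, with the longest T runs, made up 23.2% and 18.7% of its tRF-1 reads at D3 and 14.2% and 9.75% at D27, against 19.8% and 22.9% at D0. The 32-nt trailer was 1742 and 409 CPM at D3 and 236 and 65.3 CPM at D27, a log2 change of −1.997 ± 0.57, and the 29-nt one 1067 and 419 CPM at D3 and 294 and 152 CPM at D27, a change of −0.96 ± 0.47. Longer rungs were lower by more in these fits, and the differences between rungs were not tested. The 31-nt trailer with a mismatch was among the 5 fragments with the largest negative change, at 307 and 129 CPM at D3 and 70.2 and 7.26 CPM at D27.
Thr-CGT tRF-1 31 nt with a mismatch: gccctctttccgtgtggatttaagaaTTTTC

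The most abundant trailers overlapped in CPM. The tRF-1 of Met-CAT, whose main fragment comes from an initiator tRNA gene at chr3:90475860-90475931, was 33638 and 12085 CPM at D3 and 13665 and 6107 CPM at D27, against 8396 and 10459 CPM at D0. These overlapped, and the log2 change was −0.20 ± 0.28 with TMM and −0.04 without D3 replicate 1. Its mean length was 15.5 to 15.6 nt in all 6 WT libraries. The tRF-1 of Arg-ACG was 16108 and 5176 CPM at D3 and 5281 and 2105 CPM at D27. In scaled CPM it was lower in both D27 libraries, with a log2 change of −0.51 ± 0.27 and −0.27 without D3 replicate 1. Here the gene of origin differed, since 44.9% and 51.2% of its reads came from Arg-ACG-1-3 at D3 and 62.3% and 64.0% at D27, with 48.9% and 55.0% at D0.
Met-CAT tRF-1 15 nt: tcggaggctttgTTT

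Of 34 nuclear tRF-3a sums 14 were lower in both D27 libraries in scaled CPM and 7 higher, and in CPM 14 were lower and 1 higher. Their median log2 change was −0.25 with TMM and −1.06 with library size only, and it was −0.15 without D3 replicate 1, where 16 were lower and 12 higher. Tyr-GTA, the most abundant, was 11556 and 4685 CPM at D3 and 3876 and 1789 CPM at D27, against 2692 and 5505 CPM at D0. Its change was −0.54 ± 0.29, and −0.46 without D3 replicate 1. The 3a fragments of Ala-AGC went the other way in scaled CPM, with a log2 change of 0.65 ± 0.34 with TMM and −0.26 with library size only. In CPM they were 797 and 243 at D3 and 600.2 and 221 at D27, which overlapped. Of 21 nuclear tRF-3b sums 8 were higher and 2 lower in scaled CPM, and in CPM 0 were higher and 4 lower, so this class had no direction that held under both scalings. Its main sum, Glu-TTC, was 1239 and 440 CPM at D3 and 453 and 160 CPM at D27, against 75.1 and 142 CPM at D0. The main fragments of both sums are printed with the CCA in capitals.
Tyr-GTA tRF-3a 17 nt: tccggctcgaaggaCCA
Glu-TTC tRF-3b 22 nt: tcgactcccggtgtgggaaCCA

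Beside both Thr-CGT trailers, 3 fragments of 19 nt made up the 5 with the largest negative change. A 5′ fragment shared by Gly-ACC, Val-AAC and Val-CAC had 46 and 45 reads at D3 and 3 and 3 reads at D27, or 564 and 233 CPM against 19.2 and 10.9 CPM, with 78.9 and 61.9 CPM at D0. Its fitted log2 change was −3.25 ± 0.58 (limma adjusted p = 0.227), and both D27 libraries stood at the 3 reads that a count of 0 allows. A 5′ fragment of Lys-TTT was 981 and 264 CPM at D3 and 63.9 and 43.5 CPM at D27, against 109 and 99.1 CPM at D0, a change of −2.38 ± 0.57. An internal fragment of Met-CAT was 3484 and 1376 CPM at D3 and 594 and 225 CPM at D27, against 627 and 533 CPM at D0, a change of −1.88 ± 0.51.
Gly-ACC/Val-AAC/Val-CAC 19 nt: gtttccgtagtgtagtggt
Lys-TTT 19 nt: gcccggatagctcagtcgg
Met-CAT internal 19 nt: taatctgaaggtcctgagt

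Other short 5′ fragments of the same tRNAs differed less. The remaining 5′ fragments under 26 nt listed under Lys-TTT, alone or with other isodecoders, were 1607 and 724 CPM at D3 and 447 and 221 CPM at D27. Those listed likewise under Val-AAC were 2773 and 1329 CPM at D3 and 1175 and 737 CPM at D27. In CPM scaled by the factors of the sums, those of Lys-TTT were still lower in both D27 libraries, with 949 and 949 at D3 and 547 and 516 at D27. Those of Val-AAC overlapped, with 1636 and 1742 at D3 and 1439 and 1718 at D27. In the 19-nt fragment of Lys-TTT the D27 libraries were below D0, whereas the remaining short fragments lay on both sides of D0 (360.5 and 353 CPM).

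Mitochondrial tRNA reads made up 22.6% and 12.3% at D3 and 16.7% and 8.74% at D27, which overlapped, and the mean difference of −4.76 percentage points turned to 0.40 points without D3 replicate 1. Of 53 mitochondrial sums 22 were higher and 6 lower in both D27 libraries in scaled CPM, but in CPM 2 were higher and 16 lower, and the median log2 change was 0.27 with TMM and −0.62 with library size only. Sums of light-strand tRNAs had a median of 0.36 and those of heavy-strand tRNAs 0.19 with TMM, and −0.57 and −0.64 with library size only.

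The largest mitochondrial sum, listed as Other under mt-Val-TAC, lies outside the tRNA itself. The tRNA gene is at chrM:1025-1093, and 96.5% to 98.5% of the reads of this sum in the 6 WT libraries began at base 1094, the first base of mt-Rnr2, the 16S ribosomal RNA (chrM:1094-2675). These reads therefore cannot be told apart from 5′ ends of 16S ribosomal RNA. They made up 41.9% and 49.2% of all trailer reads at D3 and 61.5% and 61.3% at D27, against 64.1% and 61.5% at D0, so the trailers of all other tRNAs together were a smaller part of trailer reads in both D27 libraries. The sum itself was 87616 and 42182 CPM at D3 and 77055 and 33709 CPM at D27, with a log2 change of 0.69 with TMM and −0.25 with library size only.
mt-Val-TAC 21 nt: actaatcctagccctagccct

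The other large mitochondrial sum, of mt-Ser-GCT, was 73471 and 45921 CPM at D3 and 47822 and 29114 CPM at D27, which overlapped. Reads outside any named type in nuclear tRNAs gave 83 sums, of which 23 were higher and 14 lower in scaled CPM and 2 higher and 27 lower in CPM, with medians of 0.09 and −0.77 under the 2 scalings. Of the Other reads, 27.7% and 44.1% at D3 and 32.1% and 53.4% at D27 began at the 5′ end of the tRNA.

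A few named sums were too rare for a fold. The tRF-5c of mt-Leu-TAA had 0 and 2 reads at D3 and 8 and 5 reads at D27, and the tRF-2 of Leu-TAG had 6 and 11 reads at D3 and 6 and 1 reads at D27. The tiRNA-3 of mt-His-GTG, the largest sum of that type, was 2871 and 1179 CPM at D3 and 1456 and 878 CPM at D27, which overlapped, with a log2 change of 0.24 with TMM and −0.70 with library size only.

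Sums of the 3 tRNAs that DNMT2 methylates, Asp-GTC, Gly-GCC and Val-AAC, had no common direction. Of 13 such sums 4 were higher and 1 lower in both D27 libraries in scaled CPM and 4 higher and 4 lower in CPM, with a median log2 change of 0.35 with TMM and −0.47 with library size only. The higher ones included the tRF-5c of Gly-GCC and Val-AAC and the tiRNA-5 of Asp-GTC given above. Of the 38 sums of 5′ fragments of 10 isodecoders of glycine, glutamate, valine, lysine, histidine and aspartate tRNAs, 13 were higher and 2 lower in scaled CPM and 12 and 8 in CPM, with medians of 0.66 and −0.22.

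By isodecoder, with all types of fragment together, Glu-CTC held 5.64% and 10.8% of the reads at D3 and 12.7% and 15.3% at D27, and Gly-GCC 3.57% and 5.51% against 6.39% and 7.54%. Both were higher in both D27 libraries, as was Val-AAC/Val-CAC with 2.25% and 2.97% against 3.20% and 3.41%. Thr-CGT, with 1.31% and 0.387% at D3 and 0.280% and 0.1002% at D27, was lower, as were Met-CAT with 5.58% and 2.16% against 2.13% and 1.00% and Tyr-GTA with 2.61% and 1.01% against 0.903% and 0.451%.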

How the data were processed

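The authors removed base methylations and blocked ends from the RNA, amplified libraries from it and selected products with inserts of about 14 to 40 nt for sequencing. Per the study's methods, the authors trimmed reads with cutadapt, checked them with FastQC and aligned them with Bowtie, allowing 1 mismatch, first against mature tRNA entries and, for what stayed unmapped, against precursors. Tool versions and the genome build are not given in the sources used here. The deposited table lists each read sequence with its raw read count per library under every tRNA entry it matches (759 entries), and holds no other scaling. The alignment files of all 12 libraries held the same counts.

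Each of the 87699 sequences was counted once, and sequences of several isodecoders were kept as a group of their own. 31 sequences were listed under several types. The count model planned for these reads was not used, because the table's columns also hold text cells and were treated as values of no fixed unit. Instead log2 CPM (prior count 2), scaled by TMM factors computed here, was tested with limma with a trend, in 1 fit of the 12 libraries with a mean for each of the 6 groups and 6 residual degrees of freedom. Benjamini-Hochberg adjustment ran over all sums or all fragments, with a threshold of 0.05. Sums needed at least 10 reads and enough reads in as many libraries as a group holds, and fragments a CPM of 20 in at least 1 library. CPM is per 1000000 tRNA reads, and scaled CPM is CPM divided by the TMM factor. Errors after log2 changes are standard errors. Where a change is given without a library, the fit was repeated without it.

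Sums named were those past the threshold, or, if fewer than 10, the 10 with the smallest p, and the most abundant of each type and of mitochondrial tRNAs. Fragments named were the most abundant of each type, and the 5 with the largest change in each direction among those of 100 CPM or more whose libraries did not overlap. Other sums and the ladders were added after their values were seen. The members and lists were chosen with earlier results of these data known. Lists were described by counts and medians only. Some fragments that this rule names are not reported here. The fit was tested on simulated data. Wilson 95% intervals and the limit of 3 reads for a count of 0 cover counting error only, since no molecular identifiers were used. Libraries held 81515 to 275568 reads in the compared groups. tRNA gene positions came from RefSeq's GRCm38.p6 annotation. R 4.3.3, limma 3.58.1, Python 3.11.15, numpy 2.4.6, pandas 2.3.3, scipy 1.17.1 and matplotlib 3.10.9 were used.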

Additional observations from a re-analysis of the deposited data

Results flagged for a closer look

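The change from D3 to D27 differed between wild-type and NSun2 knockout (NS-KO) livers for 7 of the named sums, by an interaction term in the same limma fit. All but the tRF-3b of Glu-TTC had been named for a small p of the WT change. The interaction uses the same WT libraries, so that choice favours differences opposite to the WT change, and their p-values are not independent of it. The difference, NS-KO change minus WT change on the log2 scale, was −4.55 for the tRF-5c of Val-CAC (limma adjusted p = 0.00328), where the change was 2.26 in WT and −2.30 in NS-KO, with NS-KO means of 2162 CPM at D3 and 791 CPM at D27. It was −4.15 for the tRF-5c of Val-AAC (limma adjusted p = 0.00328), with 1.81 in WT and −2.34 in NS-KO. For the tRF-5c of Gly-GCC it was −4.43 (limma adjusted p = 0.00749), with 2.07 in WT and −2.36 in NS-KO, where the mean was 45391 CPM at D3 and 15080 CPM at D27. These 3 sums of valine and glycine tRNAs thus went in opposite directions in the fits of both genotypes. All these differences were fitted with TMM only. The TMM factors of WT were 1.69 and 0.763 at D3 and 0.817 and 0.429 at D27. Those of NS-KO were 0.929 and 0.947 at D3 and 1.51 and 1.83 at D27. This scaling lowers the differences, and no fit of them with library size only was made.

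The tRF-5c of His-GTG differed by −3.17 (limma adjusted p = 0.0177), with 1.83 in WT and −1.34 in NS-KO. That of Ala-CGC/Glu-CTC differed by −4.18 (limma adjusted p = 0.0397), with 2.83 in WT and −1.34 in NS-KO. That of mt-Leu-TAA, which had at most 8 reads in a WT library of the comparison, differed by −2.20 (limma adjusted p = 0.0414). Its NS-KO means in CPM were 57.9 at D3 and 58.0 at D27. The tRF-3b of Glu-TTC differed in the other direction, by 1.36 (limma adjusted p = 0.0414), with −0.50 in WT and 0.86 in NS-KO. Of all 281 sums, 10 had a higher and 41 a lower change in NS-KO at an adjusted p under 0.05 by limma with TMM. Without WT D3 replicate 1 these were 2 and 32. Without that library the differences were −3.80 for Val-CAC (limma adjusted p = 0.00741), −3.45 for Val-AAC (0.00808), −3.46 for Gly-GCC (0.0146) and −2.23 for His-GTG (0.0246). Those of Ala-CGC/Glu-CTC (−2.70, limma adjusted p = 0.0644), mt-Leu-TAA (−1.76, 0.15) and the tRF-3b of Glu-TTC (1.19, 0.147) no longer passed.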

How the results depend on the processing

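The 0 calls among sums became 5 with library size only, 1 higher (tRF-5c of Ala-CGC/Glu-CTC) and 4 lower (among them the tRF-1 of Thr-CGT and Asn-GTT), and ranged from 0 to 11 when 1 library was left out. The 11, all higher, came without D3 replicate 2, where D3 replicate 1 stands alone for D3 and is assumed to vary like the other groups. Without D3 replicate 1 no sum was called, with 4 higher and 5 lower at an unadjusted p under 0.05. The 0 calls among fragments became 71 with voom weights, 1 with the stricter filter on low fragments (2337 tested), and 0 to 128 when 1 library was left out, the 128 again without D3 replicate 2. All other settings gave 0 calls by limma. Replicate numbers were not used to pair the libraries in the main fit. Over the 15 pairs of groups, deviations of like-numbered libraries correlated from −0.295 to 0.5001, above 0.1 in 4. The highest value was that of WT D3 with WT D27, the groups compared here. With the replicate number as a block, limma called 0 sums (27 higher and 15 lower at an unadjusted p under 0.05) and 0 fragments.

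Of the 20 named sums 16 kept their direction under every setting run for them. Not every setting could be run for each sum. The tRF-5c of Ala-CGC/Glu-CTC entered neither the fit of perfect matches only nor that of single-isodecoder sequences. The Other sum of mt-Val-TAC turned to −0.25 with library size only. With library size only and with reads outside tRF-5c as the library size, the tRF-5b of Val-AAC/Val-CAC turned to −0.65 and −0.14, and the tiRNA-3 of mt-His-GTG to −0.70 and −0.17. The tRF-5b sum also turned to −0.16 without D3 replicate 1, in a range up to 0.69. The tRF-5a of Glu-CTC/Glu-TTC, at 0.0049, turned to −0.92 and −0.40 under the same scalings, −0.0709 with median-of-ratios factors, −0.11 with the 6 WT libraries only and −0.0214 with perfect matches only, and ranged from −0.36 to 0.37 when 1 library was left out, with −0.0019 without D27 replicate 2. The mitochondrial share difference turned to 2.13 percentage points of reads outside tRF-5c and to 0.40 without D3 replicate 1, within −9.91 to 0.40 over the libraries left out. The cause of these turns was not tested.

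With 1 library left out, the difference between D27 and D3 ranged from 3.71 to 29.6 percentage points for the tRF-5c share, from −5.79 to −0.65 for tRF-1 and from −3.90 to −0.68 for tRF-3a. The 30-nt share differed by 5.48 to 21.4 points in Gly-CCC/Gly-GCC, 8.41 to 21.5 in Gly-GCC and 2.40 to 16.8 in Glu-CTC, lowest without D27 replicate 1. The ratio of fragment numbers ranged from 0.530 to 0.818. The length measures within isodecoders, and the list counts, single-fragment changes and genotype differences with a library left out, were chosen after seeing the data. Fragments of a few reads limit single-fragment results most in D3 replicate 1.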
